A study of Mus musculus with 22 samples.

Results

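Livers that had received the genome of an AAV vector, but no ST3GAL5 cDNA under a promoter active in liver, were compared with livers that had received no vector genome. The 8 vector livers were the 4 given AAV9.EGFP and the 4 given rAAV9-ST3GAL5.v2, and the 8 genome-free livers were the 4 given PBS and the 4 given AAV9.empty, so that 16 of the 22 livers of the series entered the comparison. The question it addresses is which transcripts move with the delivery of a vector genome, whichever promoter and coding sequence the genome carries. All 22 livers came from male WT C57BL/6 mice injected into a vein on postnatal day 1, and the labels place the collection of the liver 36 hours after the injection. PBS is the injection fluid alone, and AAV9.empty is the capsid of AAV serotype 9 without a genome. AAV9.EGFP, labelled rAAV9.CB.EGFP, is the same capsid with EGFP, a fluorescent protein foreign to the mouse, behind the ubiquitous CB promoter. rAAV9-ST3GAL5.v2, labelled rAAV9.Syn1.ST3GAL5.miR122BS, carries the human ST3GAL5 cDNA behind the neuronal Syn1 promoter, and its transcript holds sites for miR-122, a hepatocyte microRNA that silences transcripts holding them. The remaining 6 livers received rAAV9-ST3GAL5.v1, with ST3GAL5 behind the CB promoter (3 livers), or the vector that is labelled like it with E332K added (3 livers). The labels give neither the vector dose nor the litters, so p-values speak only of the spread among these livers. Vector transcripts were not analysed here.

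Whole liver was sequenced as mRNA without strand information, and the authors deposited expected counts, which are estimates of the reads of each gene. The 16 libraries summed to 17164502 to 24305788 expected counts (median 19504966). Levels are given as CPM (counts as a share of the library on the customary CPM scale, with TMM over all 22 libraries), and the comparisons used the quasi-likelihood test of edgeR. A gene is called here at a Benjamini-Hochberg adjusted p of at most 0.05, and called at least 2-fold where the fold change reached 2 as well. Gm47283, a gene on chromosome Y, had no count in 1 of the 8 genome-free and 5 of the 8 vector libraries (0 of 4 with PBS, 1 of 4 with AAV9.empty, 3 of 4 with AAV9.EGFP and 2 of 4 with rAAV9-ST3GAL5.v2). Its presence thus moved with the classes compared, and the counts of calls between the classes are also given with it as a term of the fit.

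The transcription factor p53, encoded by Trp53, accumulates when DNA is broken or when foreign or unusual DNA ends engage the damage kinases, and then switches on genes that halt the cell cycle, promote cell death and aid repair. It is controlled mainly at the level of its protein, through the ubiquitin ligase Mdm2, itself a p53 target, which marks p53 for breakdown. An AAV genome is a short linear DNA with hairpin ends, and in the nucleus the repair proteins of the host join its ends into episomes. An empty capsid brings the same shell into the cell without such DNA.

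Ccng1, which had the smallest adjusted p of the comparison, and Cdkn1a, which came next to it in a tie with Aen, are known p53 targets whose promoters hold a p53 response element, in which 2 half-sites of 10 bases abut. The RefSeq promoters of GRCm38.p6, each from 250 bases before to 50 bases after the annotated start, were scanned on both strands with no more than the stated number of bases off the consensus and with the C and the G at the ends of the core of each half-site intact. Of the 10985 tested genes with a promoter in that table, 6 (0.0546%) held an element at most 1 base off, and these were 3 of the 336 genes called higher (0.893%), 0 of the 241 called lower and 3 that were not called (Gtse1, Calhm2 and Mthfd1). Gtse1, like the 3 called higher, is a member of the p53 lists below. The 3 elements of genes called higher are shown, with the 20 bases of the element in capitals, because the results turn on these genes. Cdkn1a, at chr17:29090923-29090952 on the plus strand and −51 to −32 from the start: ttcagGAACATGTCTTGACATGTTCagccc
Ccng1, at chr11:40755457-40755486 on the minus strand and −195 to −176 from the start: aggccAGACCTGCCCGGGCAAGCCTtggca
Rps27l, at chr9:66946291-66946320 on the plus strand and −117 to −98 from the start: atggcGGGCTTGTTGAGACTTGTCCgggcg

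Aen and Bbc3, which encode an exonuclease and a proapoptotic protein and were also called higher, held weaker matches that were 3 bases off.
Aen, at chr7:78895932-78895961 on the plus strand and 10 to 29 from the start: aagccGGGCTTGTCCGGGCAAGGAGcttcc
Bbc3, at chr7:16309481-16309510 on the plus strand and −97 to −78 from the start: cccgaCTGCAAGCCCCGACTTGTCCccagc
At that looser limit 202 of the 10985 promoters matched (1.84%), against 12 of the 336 genes called higher (3.57%), 4 of the 241 called lower (1.66%) and 12 of the 60 members of the p53 lists below (20%). The elements shown are those of the matching p53 list members that were called higher. The other matching members of these lists were not called higher and are not shown. A match describes the sequence and is not evidence of binding, and elements outside these windows were not searched.

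Genes of the p53 response were higher in the vector livers, and no other of the 31 lists examined held as many genes called higher. The lists and their members were chosen with earlier results of these data known, so this ranking is not independent of them. Of 14437 genes tested, 737 were called (5.1%), 430 higher (2.98%) and 307 lower (2.13%), and 61 were called at least 2-fold (0.423%), of which 53 were higher (0.367%) and 8 lower (0.0554%). The 2 classes did not overlap in 153 of the called genes (116 higher and 37 lower), while 1.07% of all genes tested had classes that did not overlap (0.803% higher and 0.27% lower). The p53 genes, arranged by role in 4 lists, numbered 74, of which 73 were tested, 32 were called higher and 1, Polh, was called lower. Their median log2 fold change was 0.27, against −0.00065 over all genes tested, and 26 of them had classes that did not overlap. Of the 53 genes called at least 2-fold higher, 19 belonged to these lists. In whole liver, fewer cells of a type and less RNA per cell cannot be told apart. Leaving out 1 library at a time left 31 or 32 of the p53 genes higher, and the Gm47283 term left 30, while calls over all genes moved more. With that term 282 genes were called higher and 119 lower, so that 70.3% of the calls were higher against 58.3% without it. With limma on log2 TPM, at a mean TPM of at least 1 and with pseudocounts of 1 and 0.1, that share was 37.3% and 37.5%, while 26 p53 genes were called higher in each. Without rAAV9-ST3GAL5.v2 replicate 4 they were 285 and 177, and the lower calls numbered 185 without rAAV9-ST3GAL5.v2 replicate 3, 183 without AAV9.empty replicate 1 and 204 without PBS replicate 4. The 8 genes called at least 2-fold lower became 3, 4, 5 and 14 without rAAV9-ST3GAL5.v2 replicate 3, AAV9.empty replicate 1, PBS replicate 4 and AAV9.empty replicate 4, in that order.

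**Figure D1:**
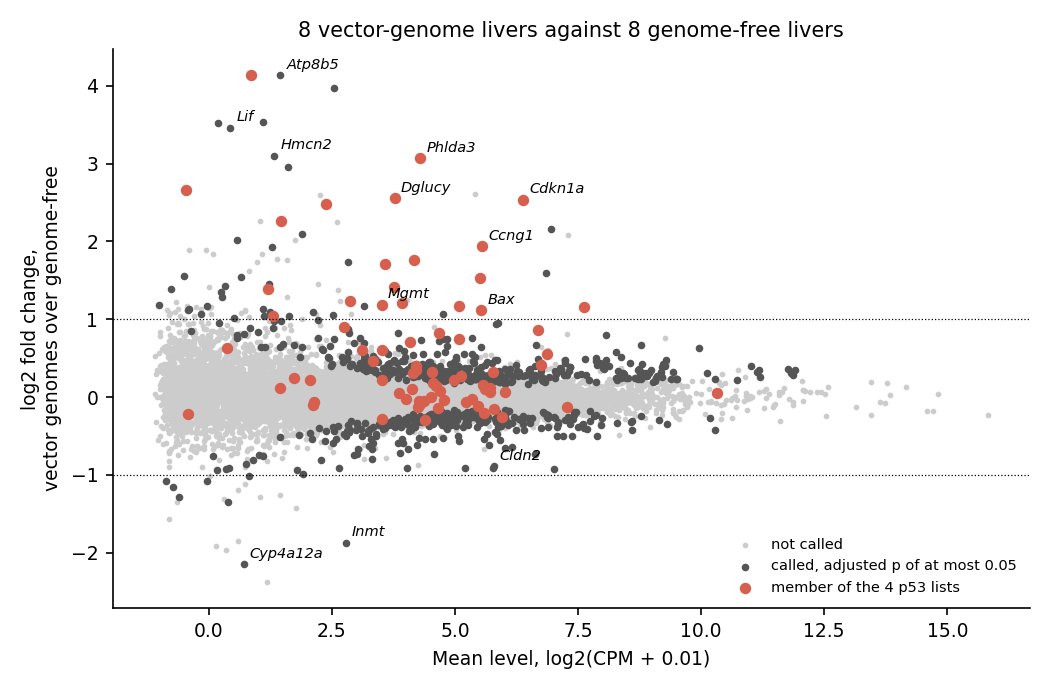
Log2 fold change of 14437 genes, 8 vector livers over 8 genome-free livers, against mean level as log2 of CPM with a small constant added. Grey points were not called, dark points were called at an adjusted p of at most 0.05, red points are the members of the 4 p53 lists and dotted lines mark a 2-fold change. Red points lie among the highest, Cdkn1a at 2.54 and Phlda3 at 3.07, and the lower edge is occupied by few genes, Cyp4a12a at −2.14 and Inmt at −1.87.

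Among the genes that feed back on p53, 5 of 12 were called higher and 0 lower (2 lower at an unadjusted p under 0.05 by edgeR, 0 called by DESeq2). The p53 transcript itself was not called, with Trp53 at 51.3 to 68.2 CPM (median 58.5) in the genome-free livers and 48.1 to 57.7 CPM (median 52.2) in the vector livers. Its log2 fold change was −0.15 (SE 0.0593, adjusted p = 0.140), and it is named here after its values had been seen. Ccng1 encodes cyclin G1, a partner of protein phosphatase 2A that acts on Mdm2 (chromosome 11, 40748552 to 40755311 in GRCm38). It was at 16.8 to 21.6 CPM (median 19.7) in the genome-free livers and 57.7 to 85.6 CPM (median 76.2) in the vector livers. Every vector liver was above every genome-free liver, by a log2 fold change of 1.94 (adjusted p = 7.80e-13, SE 0.0786), the smallest adjusted p of all genes tested. Mdm2 was at 18.1 to 29.0 CPM (median 25.7) in the genome-free livers and 36.7 to 50.2 CPM (median 40.7) in the vector livers. Its classes did not overlap either, at a smaller log2 fold change of 0.74 (adjusted p = 1.71e-05, SE 0.0874). Zmat3, an RNA-binding zinc finger protein, rose by 1.41 (SE 0.0975) and Trp53inp1, a cofactor of p53, by 1.17 (SE 0.147) on the log2 scale. Rchy1, a further ubiquitin ligase of p53, had the smallest of the 5 changes, 0.27 (SE 0.0557, adjusted p = 0.00645), and was not called with the Gm47283 term (adjusted p = 0.0562).

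The genes of cell cycle arrest had 6 of 14 members called higher and 0 lower (1 lower at an unadjusted p under 0.05 by edgeR, 0 called by DESeq2). Cdkn1a encodes p21, the inhibitor of cyclin-dependent kinases through which p53 halts the cycle (chromosome 17, 29090976 to 29100727). Its level was 18.5 to 31.3 CPM (median 25.5) in the genome-free livers and 122 to 180.0 CPM (median 131) in the vector livers. The lowest vector liver thus stood well above the highest genome-free liver, and the log2 fold change was 2.54 (SE 0.118, adjusted p = 5.86e-12), or 5.80-fold. Trp53cor1, the long noncoding RNA that lies upstream of Cdkn1a on the other strand (chromosome 17, 29057430 to 29079179), was a low transcript at 0 to 0.575 CPM (median 0.0990) in the genome-free livers and 0.611 to 1.73 CPM (median 1.19) in the vector livers. It did not overlap between classes (log2 fold change 2.66, SE 0.442, adjusted p = 0.00111), although reads of AC167363.1, which overlaps it on the opposite strand, cannot be told apart from its own. Psrc1, a spindle protein, rose by 1.21 (SE 0.102) and Plk2, a polo-like kinase, by 0.70 (SE 0.0977) on the log2 scale, both without overlap. Btg2, an antiproliferative protein, rose by 0.55 (SE 0.0853), and its classes overlapped. Gdf15, a secreted stress hormone, was at 2.25 to 15.001 CPM (median 3.83) in the genome-free livers and 8.80 to 33.7 CPM (median 16.9) in the vector livers. One AAV9.empty liver reached the vector range, and Gdf15 rose by 1.71 (SE 0.328) on the log2 scale. Its level was 18.1 to 33.7 CPM with AAV9.EGFP and 8.80 to 15.8 CPM with rAAV9-ST3GAL5.v2.

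Of the 19 genes of p53-dependent cell death, 11 were called higher, 10 of them without overlap, and 0 lower (0 at an unadjusted p under 0.05 by edgeR, and 0 called by DESeq2). Phlda3, which holds back the survival kinase Akt, was at 2.95 to 6.05 CPM (median 3.81) in the genome-free livers and 26.4 to 47.5 CPM (median 32.5) in the vector livers. Its classes were far apart, with a log2 fold change of 3.07 (adjusted p = 1.75e-11, SE 0.156). Eda2r, a death receptor of the TNF receptor family for the ligand EDA-A2 (chromosome X, 97333840 to 97377216), had the largest change of the p53 genes and was nearly absent without a vector genome. It was at 0 to 0.388 CPM (median 0.166) in the genome-free livers and 2.46 to 5.26 CPM (median 3.27) in the vector livers, a log2 fold change of 4.14 (adjusted p = 2.36e-07, SE 0.374). Tnfrsf10b, a receptor for the death ligand TRAIL, was at 0.959 to 2.30 CPM (median 1.64) in the genome-free livers and 5.54 to 10.3 CPM (median 9.19) in the vector livers. No library overlapped, and the log2 fold change was 2.48 (SE 0.180, adjusted p = 8.06e-09). Aen, the exonuclease whose promoter match is shown above, rose by 1.52 (SE 0.0720) on the log2 scale, with medians of 23.4 and 65.0 CPM.

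Bax and Bbc3 act together at the mitochondrion, where Bbc3, also called Puma, releases Bax to open the outer membrane. Bax was at 24.8 to 34.8 CPM (median 28.8) in the genome-free livers and 53.7 to 78.6 CPM (median 61.0) in the vector livers. It rose by 1.11 (SE 0.0872, adjusted p = 2.77e-08) on the log2 scale with no overlap. Bbc3 was at 3.18 to 5.90 CPM (median 4.12) in the genome-free livers and 6.56 to 15.7 CPM (median 9.36) in the vector livers, a log2 fold change of 1.24 (adjusted p = 1.57e-04, SE 0.171). Here AAV9.empty was the lowest group, at 3.18 to 3.79 CPM against 4.45 to 5.90 with PBS. Rps27l, a relative of a ribosomal protein, rose by 0.86 (SE 0.0830) and Ei24, a protein of the endoplasmic reticulum, by 0.41 (SE 0.0681), both without overlap. Smaller rises without overlap were those of the death receptor Fas, at 0.40 (SE 0.0733), and of Siva1, at 0.33 (SE 0.0646). Pidd1, which activates caspase-2, was the only called member whose classes overlapped (0.35, SE 0.0972, adjusted p = 0.0408), and its call was lost under 11 of the 16 omissions of a library (adjusted p up to 0.0902).

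**Figure D2:**
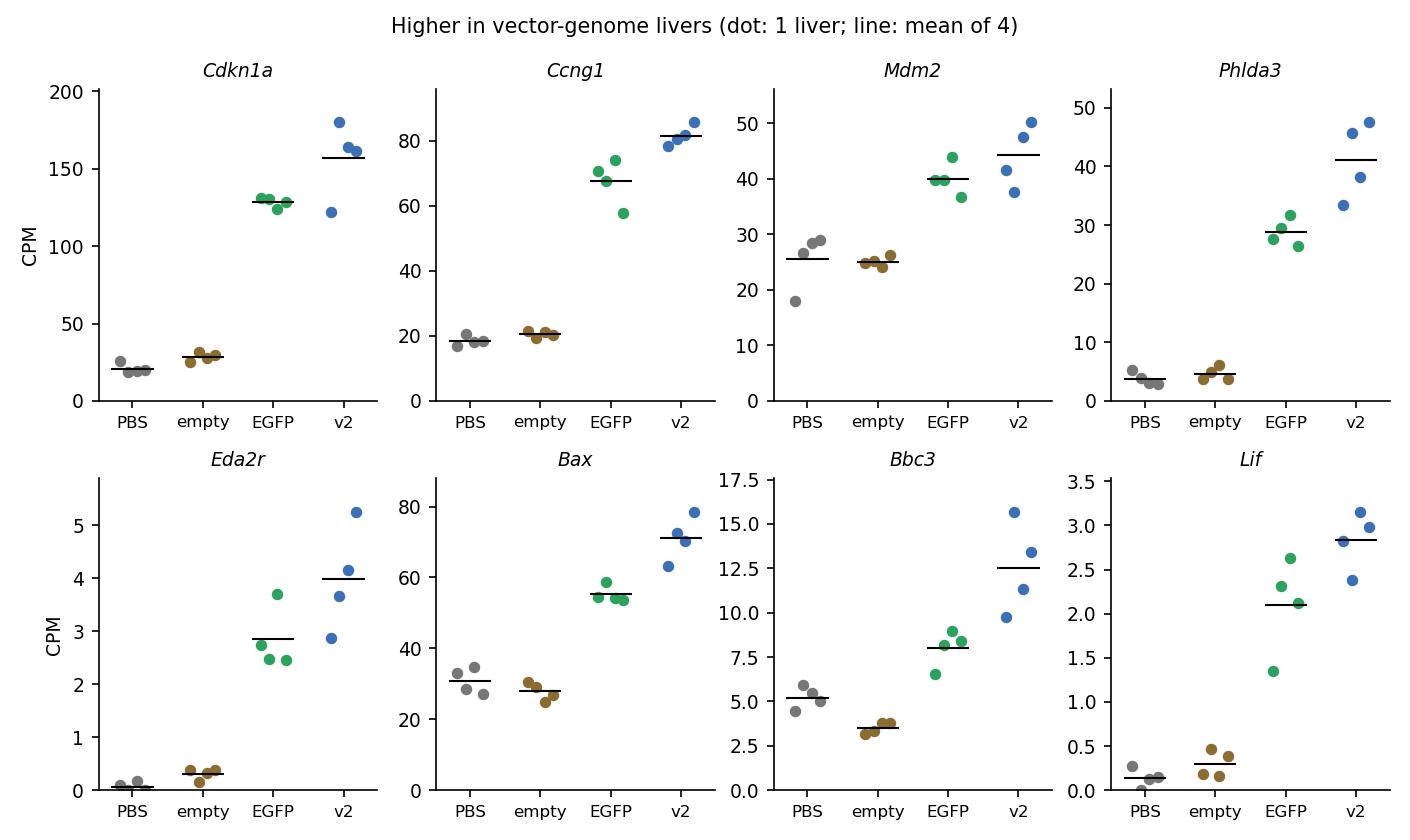
CPM in each of the 16 livers for 7 p53 genes and Lif, on linear axes from 0; each dot is 1 liver and each line the mean of 4. In every panel the 8 dots of AAV9.EGFP and rAAV9-ST3GAL5.v2 lie above the 8 of PBS and AAV9.empty, for Cdkn1a from 122 CPM upward against at most 31.3.

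The p53 genes of metabolism and repair were called less uniformly, with 10 of 28 higher and 1 lower. Dglucy, the D-glutamate cyclase of mitochondria, was at 3.30 to 4.62 CPM (median 3.95) in the genome-free livers and 17.7 to 35.8 CPM (median 19.2) in the vector livers. It rose by 2.56 (SE 0.151, adjusted p = 2.72e-10) on the log2 scale without overlap, although reads of a gene that overlaps it on the other strand cannot be told apart from its own. Ephx1, the epoxide hydrolase of the endoplasmic reticulum that detoxifies reactive epoxides, was the most abundant of these at 96.3 to 145 CPM (median 124) in the genome-free livers and 231 to 310.0 CPM (median 269) in the vector livers. It rose by 1.15 (SE 0.0757, adjusted p = 1.98e-09). Sulf2, an extracellular sulfatase of heparan sulfate, rose by 1.76 (SE 0.124), and Ddit4l, an inhibitor of mTOR signalling, by 2.26 (SE 0.276). Mgmt, which removes alkyl groups from guanine in DNA, rose by 1.19 (SE 0.111), and the translesion polymerase Polk by 0.91 (SE 0.129). All of these had classes that did not overlap. Sesn2, a stress-induced inhibitor of mTORC1 that also belongs to the list of the unfolded protein and integrated stress responses, rose by 0.83 (SE 0.0730). Cpt1c, a relative of the mitochondrial fatty acid importer, rose by 1.04 (SE 0.201), Ercc5, a nuclease of nucleotide excision repair, by 0.61 (SE 0.0993) and Ddit4, an inhibitor of mTORC1, by 0.61 (SE 0.126). The calls of Cpt1c and Ercc5 were lost in all 3 limma fits of log2 TPM (adjusted p up to 0.162 and 0.202). Polh, the other translesion polymerase of the list, fell (−0.30, SE 0.0748, adjusted p = 0.0244), with overlapping classes and no call under the Gm47283 term (adjusted p = 0.0582).

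DNA repair outside the p53 lists gave few calls. Of 30 genes that sense and repair DNA damage, 0 were called higher (0 at an unadjusted p under 0.05 by edgeR, and 0 called by DESeq2) and 2 lower, with a median log2 fold change of −0.10. DESeq2 called 4 lower, and edgeR had 9 lower at an unadjusted p under 0.05. Parp1, which marks strand breaks, had a log2 fold change of −0.25 (SE 0.0567), and its call was lost with the Gm47283 term (adjusted p = 0.0988). Fanca, of the crosslink repair complex, was at −0.31 (SE 0.0836, adjusted p = 0.0338), a call lost under 7 of the 16 omissions. H2ax, the histone that carries the mark of strand breaks, was at 182 to 237 CPM (median 206) in the genome-free livers and 163 to 196 CPM (median 179) in the vector livers and was not called (−0.20, SE 0.0608, adjusted p = 0.0657).

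Beyond the p53 lists, 8 of the 15 genes with the largest rise among those without overlap belonged to none of them. Atp8b5, a lipid flippase of the membrane (chromosome 4, 43267159 to 43373833), was at 0.0935 to 0.702 CPM (median 0.232) in the genome-free livers and 3.03 to 7.94 CPM (median 4.69) in the vector livers. Its log2 fold change was 4.14 (SE 0.317, adjusted p = 1.98e-08), close to that of Eda2r. Lif, the interleukin-6 family cytokine, was at 0 to 0.471 CPM (median 0.174) in the genome-free livers and 1.34 to 3.16 CPM (median 2.50) in the vector livers, a log2 fold change of 3.46 (adjusted p = 5.39e-07, SE 0.329). Hmcn2, an extracellular matrix protein, rose by 3.10 (SE 0.354), and Inka2, an inhibitor of the kinase Pak4, by 2.96 (SE 0.285). Both had classes that did not overlap.

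Gm37795 is a transcript of unsettled status in the annotation (chromosome 4, 150068539 to 150070997, plus strand) at the Mir34a locus, which holds a microRNA known as a p53 target. It was at 0.140 to 0.631 CPM (median 0.310) in the genome-free livers and 1.96 to 6.50 CPM (median 3.49) in the vector livers, a log2 fold change of 3.53 (adjusted p = 1.22e-07, SE 0.304). The hairpin of Mir34a (chr4:150068454-150068555 in GRCm38.p6, plus strand) shares its last 17 bases with the start of Gm37795. The mature arm is given to identify the locus, with its seed, bases 2 to 8, in capitals, and its level was not measured by these mRNA libraries.
mmu-miR-34a-5p, at chr4:150068473-150068494: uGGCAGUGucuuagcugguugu

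The last members of this set were noncoding. Gm12744 had no count in any PBS liver, 0 to 2.62 CPM with AAV9.empty, 4.03 to 11.9 CPM with AAV9.EGFP and 7.36 to 23.5 CPM with rAAV9-ST3GAL5.v2. The log2 fold change was 3.97 (SE 0.628, adjusted p = 7.29e-04) and reached 4.71 without AAV9.empty replicate 4, the genome-free liver with the highest level. Because the libraries do not keep the strand, its reads cannot be told apart from those of a gene that overlaps it on the other strand. Gm42047 (chromosome 8, 121833247 to 121841178) was at 21.6 to 98.0 CPM (median 38.5) in the genome-free livers and 99.8 to 372 CPM (median 169) in the vector livers, with a log2 fold change of 2.15 (adjusted p = 3.47e-04, SE 0.318), and A930001C03Rik, which overlaps Rhod and Syt12 on the other strand, rose by 2.01 (SE 0.317). Gm42047 lies within Gm20388, a protein-coding gene on the same strand that was not among the genes tested, so some of its reads may belong to that gene.

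The classes pool 2 groups each, so the response was also read in 2 comparisons that share no library, AAV9.EGFP against PBS and rAAV9-ST3GAL5.v2 against AAV9.empty. The first called 537 of 14527 genes (3.7%) and the second 783 of 14558 (5.38%). Called higher in both were 76 genes, which are 21.4% of the 355 higher in the first (2.44% of genes tested) and 18.1% of the 419 higher in the second (2.88%), and 23 of the 76 were in the p53 lists. Called lower in both were 13 genes, 7.14% of 182 (1.25% of genes tested) and 3.57% of 364 (2.5%), with 0 p53 genes among them. A further 10 genes were called in both but in opposite directions, and are named for that reason, which were Clk1, Gt(ROSA)26Sor, H2-Q6, H2-Q7, Ip6k2, Mir17hg, Ngfr, Nid1, Nr2f2 and Parp16. The p53 lists had 27 members higher and 1 lower in the first comparison and 29 higher and 3 lower in the second. Cdkn1a rose by 2.63 (SE 0.101) in the first and 2.47 (SE 0.122) in the second, and Ccng1 by 1.88 (SE 0.0961) and 1.99 (SE 0.0733). Phlda3 rose by 2.94 (SE 0.158) and 3.17 (SE 0.164), and Atp8b5, outside the lists, by 3.61 (SE 0.339) and 4.52 (SE 0.393). Gdf15 was called only in the first, at 2.74 (SE 0.253, adjusted p = 2.15e-05), and stood at 0.78 (SE 0.380, adjusted p = 0.251) in the second, a difference that was not tested across these 2 fits.

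The crossed pairing gave fewer calls for AAV9.EGFP. AAV9.EGFP against AAV9.empty called 64 of 14473 genes (0.442%) and rAAV9-ST3GAL5.v2 against PBS 422 of 14569 (2.9%). Called higher in both were 43 genes, 76.8% of the 56 higher in the first (0.387% of genes tested) and 16.4% of the 262 higher in the second (1.8%), with 19 in the p53 lists. Lower in both were 3 genes, 37.5% of 8 (0.0553%) and 1.88% of 160 (1.1%), and 0 genes were called in opposite directions. The p53 lists had 21 members higher and 0 lower in the first of this pair and 29 and 0 in the second. Cdkn1a rose by 2.17 (SE 0.0739) and 2.91 (SE 0.141), and Phlda3 by 2.65 (SE 0.142) and 3.45 (SE 0.179). The number of calls depended on single livers. For AAV9.EGFP against PBS it was 1123 without PBS replicate 1, 333, 305 and 352 without PBS replicates 2, 3 and 4, and 280 and 322 without AAV9.EGFP replicates 3 and 4. For rAAV9-ST3GAL5.v2 against AAV9.empty it was 318, 197 and 312 without AAV9.empty replicates 1, 2 and 3, and 401 and 442 without rAAV9-ST3GAL5.v2 replicates 1 and 4. For AAV9.EGFP against AAV9.empty it was 106 without AAV9.EGFP replicate 1, and for rAAV9-ST3GAL5.v2 against PBS 239, 205 and 192 without PBS replicates 2, 3 and 4.

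**Figure D3:**
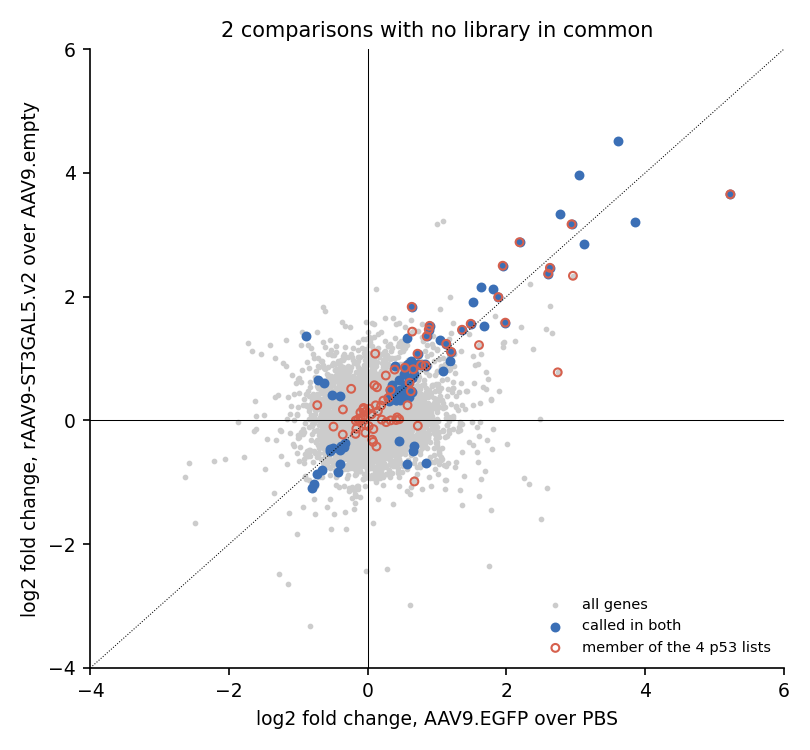
Log2 fold change of AAV9.EGFP over PBS (x axis) and of rAAV9-ST3GAL5.v2 over AAV9.empty (y axis), which share no library. Blue points were called in both, red rings are p53 list members, grey points all genes, the dotted line marks equal changes and 1 gene lies outside the axes. Of the points called in both, the 76 higher in both lie along the dotted line in the upper right and 10 lie in the quadrants of opposite sign.

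The genes that were lower in the vector livers changed less. The 15 with the largest fall among those without overlap had log2 fold changes from −0.89 to −0.39. Cldn2, a tight junction protein that forms a channel for cations and water, headed them at 53.4 to 83.7 CPM (median 75.7) in the genome-free livers and 17.3 to 46.9 CPM (median 44.7) in the vector livers. Its log2 fold change was −0.89 (SE 0.169, adjusted p = 0.00366), and the rAAV9-ST3GAL5.v2 livers ranged from 17.3 to 46.9 CPM. Glul, the glutamine synthetase of hepatocytes around the central vein, was at 381 to 498 CPM (median 435) in the genome-free livers and 277 to 379 CPM (median 335) in the vector livers. It had a log2 fold change of −0.42 (SE 0.0795) with no overlap. Values given for the next genes are log2 fold changes. Tppp, which promotes tubulin polymerization, was at −0.81 (SE 0.153), and the plasma membrane calcium pump Atp2b1 at −0.39 (SE 0.0647). Scpep1, a carboxypeptidase, was at −0.48 (SE 0.0694) and Ctsc, the lysosomal protease that activates granule proteases, at −0.42 (SE 0.0743). Ifi206, an interferon-inducible gene, was at −0.76 (SE 0.192, adjusted p = 0.0258), a call lost without PBS replicate 4 or rAAV9-ST3GAL5.v2 replicate 3 (adjusted p up to 0.0539). Uba6 (−0.41, SE 0.0872), a ubiquitin-activating enzyme, Mospd2 (−0.41, SE 0.0762), a tether between organelles, and Fam167a (−0.54, SE 0.109) complete the set with the genes given below for division, macrophages and endothelium.

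A further 2 genes, with overlapping classes, fell more and are named after their values had been seen. Cyp4a12a, a fatty acid hydroxylase that in the adult mouse is typical of males, was at 0.340 to 5.69 CPM (median 2.46) in the genome-free livers and 0.316 to 1.06 CPM (median 0.540) in the vector livers, a log2 fold change of −2.14 (adjusted p = 0.00206, SE 0.378), and was not called with the Gm47283 term (adjusted p = 0.0752). Inmt, a methyltransferase of tryptamine and other amines, was at 5.49 to 20.1 CPM (median 10.1) in the genome-free livers and 1.13 to 6.11 CPM (median 2.93) in the vector livers, a log2 fold change of −1.87 (adjusted p = 0.00115, SE 0.312). Of the 51 named genes called lower, 24 lost the call with the Gm47283 term and 19 under at least 1 omission of a library, while of the 53 named genes called higher 8 and 6 did. In 1 or more of the 3 limma fits of log2 TPM, 23 of the lower and 13 of the higher genes lost the call. The part of Gm47283, or of what it marks, in these calls was not tested beyond that fit.

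**Figure D4:**
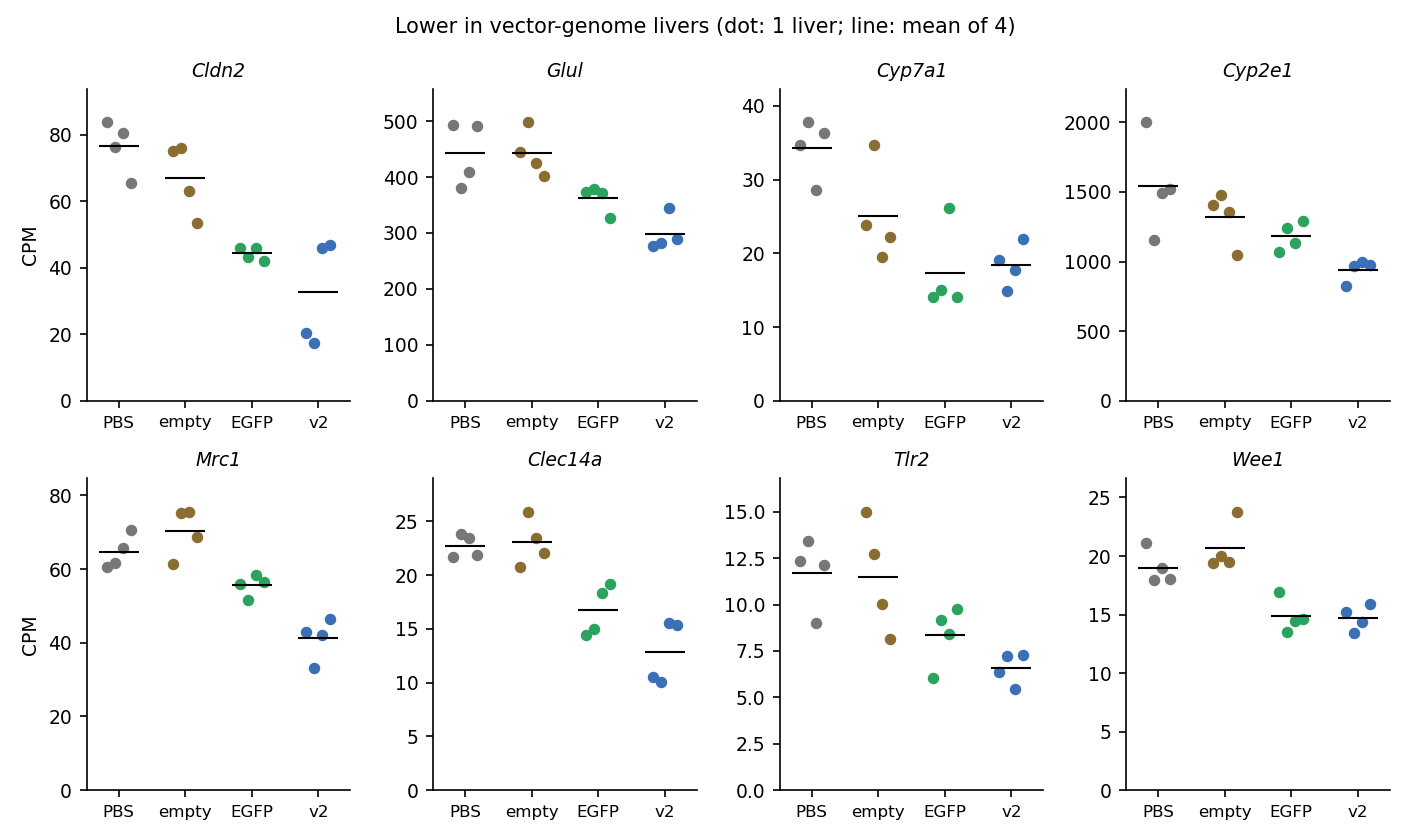
CPM in each of the 16 livers for 8 genes called lower in the vector livers, on linear axes from 0; each dot is 1 liver and each line the mean of 4. Cldn2, Glul, Mrc1, Clec14a and Wee1 have vector livers that all lie below the genome-free livers, while the classes overlap for Cyp7a1, Cyp2e1 and Tlr2.

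Genes of division leaned lower, though few were called. Of 40 cell cycle genes, 4 were called lower and 0 higher, against 2.13% and 2.98% of all genes tested. At an unadjusted p under 0.05 by edgeR 17 of the 40 were lower and 1 higher, against 1434 and 1554 of all 14437 genes. DESeq2 called 5 lower and 0 higher. By edgeR 35 of the 40 had a negative log2 fold change and the median was −0.15. For AAV9.EGFP the median was −0.20 against PBS and −0.22 against AAV9.empty, with 37 and 36 of the 40 values negative. For rAAV9-ST3GAL5.v2 it was −0.02 and −0.07, with 21 and 27 negative, and between the vectors 0 of the 40 were called by edgeR (13 higher and 1 lower with rAAV9-ST3GAL5.v2 at an unadjusted p under 0.05) and 2 by DESeq2. Top2a, the topoisomerase that untangles chromosomes, was at −0.24 (SE 0.0659, adjusted p = 0.0338), and the spindle checkpoint kinases Bub1 and Bub1b at −0.31 (SE 0.0792) and −0.27 (SE 0.0677). Kif20a, a kinesin of cytokinesis, was at −0.26 (SE 0.0747, adjusted p = 0.0441). These calls were fragile: Top2a lost it under 8, Kif20a under 12 and Bub1 under 3 of the 16 omissions, and all 4 lost it with the Gm47283 term. Outside the list, 3 genes of division were among the largest falls without overlap. Wee1, the kinase that delays entry into mitosis, was at 17.9 to 23.8 CPM (median 19.5) in the genome-free livers and 13.4 to 16.9 CPM (median 14.5) in the vector livers, a log2 fold change of −0.42 (adjusted p = 0.00105, SE 0.0686). Anln, a scaffold of the contractile ring, was at 34.5 to 45.7 CPM (median 38.9) in the genome-free livers and 20.5 to 33.5 CPM (median 26.8) in the vector livers, a log2 fold change of −0.50 (adjusted p = 0.00226, SE 0.0888), and Fam83d, a spindle protein, had one of −0.50 (SE 0.0889). Of 14 tested replication-dependent histone genes, 0 were called (2 higher and 1 lower at an unadjusted p under 0.05 by edgeR, and 1 higher and 1 lower called by DESeq2).

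Among genes of liver metabolism, calls were mostly lower. Over all genes tested, 2.13% were called lower and 2.98% higher. At an unadjusted p under 0.05 by edgeR, 1434 of the 14437 genes were lower and 1554 higher. The cytochrome P450 list had 5 of 29 members called lower and 2 higher, with a median log2 fold change of −0.18. At an unadjusted p under 0.05 by edgeR 11 were lower and 3 higher, and DESeq2 called 8 lower and 2 higher. Cyp1a2, which oxidises aromatic amines, was at 33.6 to 63.9 CPM (median 48.4) in the genome-free livers and 8.37 to 43.8 CPM (median 26.2) in the vector livers. The lowest levels were in rAAV9-ST3GAL5.v2 livers, and the log2 fold change of −0.92 (adjusted p = 0.0267, SE 0.235) lost its call without AAV9.empty replicate 1 or rAAV9-ST3GAL5.v2 replicate 3 (adjusted p up to 0.0563). Cyp2e1, which oxidises ethanol, was at 1044 to 1998 CPM (median 1444) in the genome-free livers and 827 to 1289 CPM (median 1033) in the vector livers, a log2 fold change of −0.42 (adjusted p = 0.0253, SE 0.107) that lost its call without rAAV9-ST3GAL5.v2 replicate 4 (adjusted p = 0.0525) and with the Gm47283 term. Cyp2j5 and Cyp3a16 had log2 fold changes of −0.54 (SE 0.0989) and −0.35 (SE 0.0668). Cyp4a10, a fatty acid hydroxylase, was at 134 to 207 CPM with PBS and 69.6 to 98.5 CPM with AAV9.empty, and the range of the latter lay within that of the vector livers, 56.1 to 107 CPM. Its log2 fold change was −0.73 (SE 0.182, adjusted p = 0.0242), and its call was lost without rAAV9-ST3GAL5.v2 replicate 4, just past the threshold, and with the Gm47283 term (−0.46, adjusted p = 0.216). The members called higher were Cyp2u1 (0.98, SE 0.213) and Cyp2d9 (0.38, SE 0.0842). Both calls were lost in all 3 limma fits of log2 TPM (adjusted p up to 0.278 and 0.147).

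Bile acid genes had 4 of 20 members called lower and 0 higher. At an unadjusted p under 0.05 by edgeR 8 were lower and 0 higher, and DESeq2 called 5 lower and 0 higher. Cyp7a1, which sets the rate of bile acid synthesis, was at 19.6 to 37.7 CPM (median 31.6) in the genome-free livers and 14.1 to 26.1 CPM (median 16.4) in the vector livers. All 4 PBS livers were above every vector liver, the AAV9.empty livers overlapped them, and the log2 fold change was −0.73 (SE 0.149, adjusted p = 0.00639), with an adjusted p of 0.0743 under the Gm47283 term. The importers of bile acids and organic anions Slc10a1, Slco1b2 and Slco1a1 were at −0.36 (SE 0.0757), −0.41 (SE 0.112) and −1.28 (SE 0.287), and the call of Slco1b2 was lost under 8 omissions. With the Gm47283 term Slco1a1 (adjusted p = 0.0868) and Slco1b2 (adjusted p = 0.184) were not called either. Cholesterol synthesis had 2 of 24 members lower, Hmgcs1 at −0.50 (SE 0.134) and Sc5d at −0.27 (SE 0.0770), and a median of −0.19. The calls of these 2 genes were lost under 7 and 13 omissions. At an unadjusted p under 0.05 by edgeR 10 of the 24 were lower and 0 higher. The median of the cholesterol genes with AAV9.EGFP was 0.02 against PBS and −0.05 against AAV9.empty, while rAAV9-ST3GAL5.v2 had 5 lower against PBS (median −0.37) and 9 against AAV9.empty (median −0.50). Amino acid breakdown and the urea cycle had 4 of 46 members called lower and 1 higher (15 lower and 2 higher at an unadjusted p under 0.05 by edgeR). Among those called lower were Bckdhb, a subunit of the branched-chain keto acid dehydrogenase, at −0.28 (SE 0.0627), Afmid at −0.31 (SE 0.0790) and Kynu at −0.24 (SE 0.0671). These 3 lost the call with the Gm47283 term. Ftcd, a folate-dependent enzyme of histidine breakdown, rose by 0.44 (SE 0.0853). Fatty acid oxidation had 2 of 28 members lower, Ppara, the nuclear receptor that governs it (−0.33, SE 0.0832, adjusted p = 0.0258, lost under 4 omissions), and Cyp4a10, which both lists hold. At an unadjusted p under 0.05 by edgeR 7 of the 28 were lower and 0 higher. Of 23 genes of hepatocyte identity, only Onecut1, a transcription factor of liver development, was called by edgeR, at −0.54 (SE 0.119, adjusted p = 0.0108), and not with the Gm47283 term. DESeq2 called 3 of the 23 lower, and edgeR had 9 lower and 1 higher at an unadjusted p under 0.05. Alb, the albumin gene, was at −0.24 (SE 0.0718, adjusted p = 0.0598) and Hnf4a at −0.19 (SE 0.0676, adjusted p = 0.106). The summed level of that list was 123461 to 158872 CPM in the vector livers and 144068 to 188406 CPM in the genome-free livers.

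No interferon-stimulated gene and no sensor of foreign nucleic acid or capsid was called higher in the vector livers. Of 41 interferon-stimulated genes, 0 were called by edgeR and 1, lower, by DESeq2. At an unadjusted p under 0.05 edgeR gave 0 higher and 4 lower, and 36 of the 41 had a negative log2 fold change (median −0.15). Ifit2, an inhibitor of viral translation, was at 8.90 to 18.3 CPM (median 14.5) in the genome-free livers and 8.21 to 12.0 CPM (median 10.4) in the vector livers (−0.40, SE 0.135, adjusted p = 0.0854). Of 22 sensors that can respond to vectors, 0 were called higher (0 at an unadjusted p under 0.05 by edgeR, 0 called by DESeq2) and 2 lower. DESeq2 called 4 lower, and edgeR had 6 lower at an unadjusted p under 0.05. Tlr2, a receptor reported to respond to AAV capsids, was at 8.16 to 15.001 CPM (median 12.2) in the genome-free livers and 5.47 to 9.78 CPM (median 7.25) in the vector livers, a log2 fold change of −0.63 (adjusted p = 0.00877, SE 0.135) that was not called with the Gm47283 term. Ddx58, which encodes the RNA sensor RIG-I, was at −0.30 (SE 0.0807, adjusted p = 0.0353), and its call was lost under 9 omissions.

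Of 28 cytokines and chemokines, 14 were expressed enough to test and Csf3 had no count in any of the 16 livers. Lif and Ccl7 were called higher and 0 lower (2 lower at an unadjusted p under 0.05 by edgeR, 0 called by DESeq2). Ccl7, a chemokine for monocytes, was low at 0.0877 to 0.608 CPM (median 0.223) in the genome-free livers and 0.421 to 0.867 CPM (median 0.658) in the vector livers, and its call (1.18, SE 0.338, adjusted p = 0.0457) was lost under 14 omissions. Cxcl10, an interferon-induced chemokine, was not called (−0.48, SE 0.174, adjusted p = 0.111). In the acute phase list, which has 25 tested members and in which Orm3 had no count in the 16 livers, 2 were called higher and 1 lower. Serpina3n, a protease inhibitor secreted by the liver, was at 687 to 921 CPM (median 759.8) in the genome-free livers and 966 to 1441 CPM (median 1183) in the vector livers. It rose by 0.63 (SE 0.0833, adjusted p = 8.15e-05) with no overlap, as did Saa4, a constitutive serum amyloid, by 0.49 (SE 0.0767). Crp, the C-reactive protein gene, was at 121 to 194 CPM (median 164) in the genome-free livers and 102 to 131 CPM (median 111) in the vector livers, a log2 fold change of −0.51 (SE 0.0776). Hamp, which encodes the iron hormone hepcidin, was at 0.81 (SE 0.270, adjusted p = 0.0823).

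Some of the 8 genes that the study names for the liver were followed up from RNA-Seq that included these livers, so their list is not independent evidence of a direction. Of its 7 tested members 0 were called by edgeR or DESeq2, and 1, Il1a, was higher at an unadjusted p under 0.05. Ddit3, the transcription factor CHOP of the unfolded protein response, was at 6.91 to 11.5 CPM (median 9.64) in the genome-free livers and 7.31 to 15.04 CPM (median 9.45) in the vector livers. The classes overlapped over most of their range, with a log2 fold change of 0.12 (adjusted p = 0.679, SE 0.134). Il1a, Tnf and Ccl2, inflammatory signals, were at 0.49 (SE 0.173), 0.20 (SE 0.296) and 0.29 (SE 0.237), and Ccl3 was too low to test. The mouse St3gal5, the ganglioside synthase that the human cDNA replaces, was at 178 to 194 CPM (median 187) in the genome-free livers and 161 to 195 CPM (median 181) in the vector livers (−0.04, SE 0.0494, adjusted p = 0.733). Gusb and Tfrc, used as reference genes, were at 0.07 (SE 0.0594) and −0.14 (SE 0.134). Of 31 genes of the unfolded protein and integrated stress responses only Sesn2 was called, and the chaperones Hspa5 and Hsp90b1 were at −0.17 (SE 0.0617) and −0.21 (SE 0.0723). Of 27 proteasome genes 0 were called by edgeR or DESeq2, with 4 higher at an unadjusted p under 0.05. The NRF2 list had 3 of 20 members higher by small amounts, Nfe2l2 itself (0.25, SE 0.0465, adjusted p = 0.00324), Srxn1, a reductase of peroxiredoxin (0.40, SE 0.0997, lost without rAAV9-ST3GAL5.v2 replicate 4 at an adjusted p of 0.0530), and Gclc, of glutathione synthesis (0.20, SE 0.0527, lost under 5 omissions). Over all genes tested 2.98% were called higher. At an unadjusted p under 0.05 by edgeR 7 of the 20 were higher and 0 lower, and DESeq2 called 4 higher.

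The vectors differ in sites for a microRNA, and its targets were read in the pooled comparison and between the vectors. Of 27 known targets of miR-122, the microRNA whose binding sites rAAV9-ST3GAL5.v2 carries, 2 were called higher and 1 lower in the vector livers. Their median was 0.01, and 2.98% and 2.13% of all genes tested were called higher and lower. The members higher were Ccng1, which the p53 lists also hold, and Gtf2b, a general transcription factor (0.29, SE 0.0813, adjusted p = 0.0446, lost under 11 omissions). P4ha1, a collagen prolyl hydroxylase, had a log2 fold change of −0.34 (adjusted p = 0.00576, SE 0.0695) without overlap. Those values pool both vectors. Between rAAV9-ST3GAL5.v2 and AAV9.EGFP 0 of the 27 were called by edgeR, with a median log2 difference of 0.004. At an unadjusted p under 0.05, 6 were higher and 4 lower with rAAV9-ST3GAL5.v2, and DESeq2 called 1 higher and 0 lower.

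Markers of other liver cells were examined because whole liver mixes them. Of 17 Kupffer cell and monocyte markers, 3 were called lower and 0 higher (0 at an unadjusted p under 0.05 by edgeR, 0 called by DESeq2). The median log2 fold change of AAV9.EGFP in this list was 0.07 against PBS and 0.002 against AAV9.empty. With rAAV9-ST3GAL5.v2, 4 markers were called lower against PBS (median −0.16), 5 against AAV9.empty (median −0.26) and 3 against AAV9.EGFP (median −0.30). The summed level was 1256 to 1884 CPM in the vector livers and 1620.3 to 2142 CPM in the genome-free livers. Mrc1, the mannose receptor of macrophages and sinusoidal endothelium, was at 60.5 to 75.6 CPM (median 67.1) in the genome-free livers and 33.2 to 58.4 CPM (median 49.1) in the vector livers and did not overlap (−0.47, SE 0.0945, adjusted p = 0.00528). Csf1r, the receptor on which macrophages depend, was at 167 to 237 CPM (median 186) in the genome-free livers and 110.0 to 172 CPM (median 138) in the vector livers (−0.49, SE 0.0981, adjusted p = 0.00492), and Timd4, a Kupffer cell receptor for dying cells, was at −0.38 (SE 0.0974, adjusted p = 0.0262), a call lost under 4 omissions. Of 14 endothelial markers, 2 were lower, Gpr182 (−0.29, SE 0.0749, lost under 6 omissions) and Oit3 (−0.24, SE 0.0692, lost under 12), with sums of 566 to 819 CPM in the vector livers and 692 to 847 CPM in the genome-free livers. DESeq2 called 4 of the 14 lower, and edgeR had 7 lower and 1 higher at an unadjusted p under 0.05. AAV9.EGFP against PBS had 1 endothelial marker called, which was higher (median 0.01), and rAAV9-ST3GAL5.v2 against AAV9.empty had 4, all lower (median −0.33). Between the vectors 1 of the 14 was called, lower with rAAV9-ST3GAL5.v2, and all 14 had a negative log2 difference (median −0.24). Clec14a, an endothelial lectin outside the list, was at 20.7 to 25.9 CPM (median 22.7) in the genome-free livers and 10.01 to 19.2 CPM (median 15.1) in the vector livers, a log2 fold change of −0.62 (adjusted p = 0.00176, SE 0.108) without overlap. The part of these cells in the lower levels of genes such as Tlr2 and Ctsc was not tested.

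Among the remaining cell types, Prtn3, a granule protease of neutrophil precursors, was the only one of 15 neutrophil markers called by edgeR (0.29, SE 0.0685, adjusted p = 0.0187), and it lost the call with the Gm47283 term. DESeq2 called 3 of the 15 higher, and edgeR had 5 higher and 1 lower at an unadjusted p under 0.05. The neutrophil sum was 1665 to 2859.8 CPM in the vector livers and 1893 to 2219.7 CPM in the genome-free livers. Cd4, of T cells, was the only one of 13 tested lymphocyte markers called, at 0.825 to 2.76 CPM (median 1.56) in the genome-free livers and 0.728 to 1.06 CPM (median 0.879) in the vector livers (−0.92, SE 0.253, adjusted p = 0.0365, lost under 10 omissions). Lrat, of stellate cells, was the only one of 14 stellate and matrix markers called by edgeR (0.33, SE 0.0856, lost under 7 omissions), while DESeq2 called 2 higher. At an unadjusted p under 0.05 edgeR had 6 of the 14 higher and 0 lower. The log2 fold change was positive for 13 of them (median 0.17). Of 7 tested cholangiocyte and 18 erythroid markers 0 were called by edgeR or DESeq2, with 1 and 0 at an unadjusted p under 0.05. The erythroid sum was 27704 to 55162 CPM in the vector livers and 39103 to 60238 CPM in the genome-free livers. The stellate sums were 654 to 1580.1 and 817 to 1179 CPM, the lymphocyte sums 168 to 272 and 162 to 296 CPM and the cholangiocyte sums 62.6 to 105 and 51.3 to 99.99 CPM, in the same order.

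**Figure D5:**
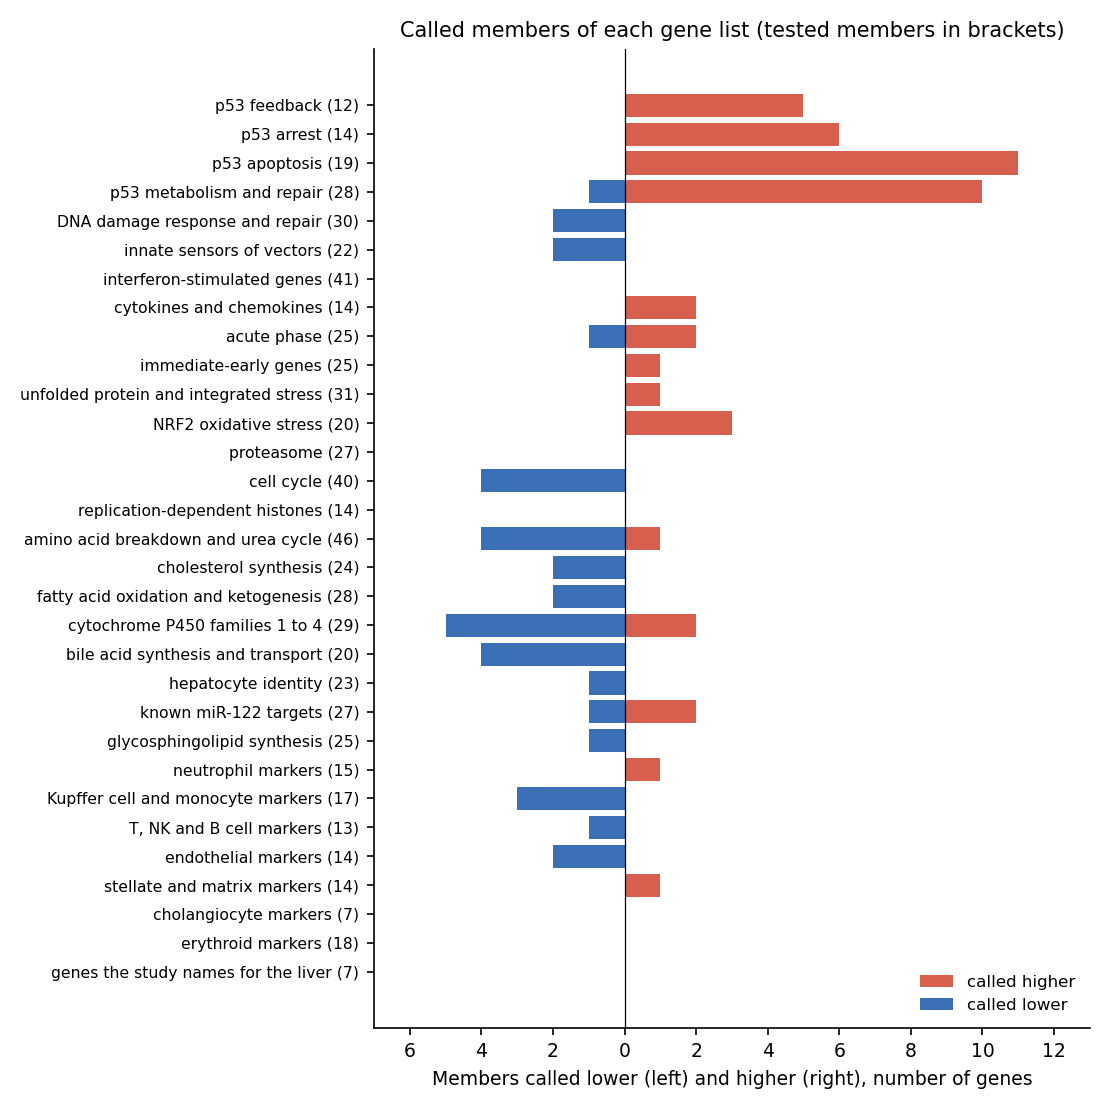
Number of genes of each of 31 lists called higher (red, to the right) or lower (blue, to the left) in the 8 vector livers against the 8 genome-free livers, with the tested members of each list in brackets. The 4 p53 lists hold 32 genes called higher and 1 called lower, and no other list holds more than 3 called higher.

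The 2 vectors were then set against each other, with all 16 libraries giving the spread. Of 15185 genes tested, 103 were called (0.678%), 31 higher (0.204%) and 72 lower (0.474%) with rAAV9-ST3GAL5.v2 than with AAV9.EGFP. That count rested on single livers: it was 2 without AAV9.EGFP replicate 3 and 4 without rAAV9-ST3GAL5.v2 replicate 1, 27, 35 and 17 without AAV9.EGFP replicates 1, 2 and 4 and 33 without rAAV9-ST3GAL5.v2 replicate 4. Of the 737 genes called between vector and genome-free livers, 14 were also called between the vectors, and of the 61 called at least 2-fold only Gm42047 was. In the p53 lists 0 of 73 genes were called higher and 1, Trp53i11, named for that reason, lower by edgeR, with 17 higher and 6 lower at an unadjusted p under 0.05. DESeq2 called 8 of them higher and 3 lower. The difference between the vectors, rAAV9-ST3GAL5.v2 over AAV9.EGFP in log2 units, was 0.28 (95% interval 0.05 to 0.52) for Cdkn1a, 0.27 (95% interval 0.10 to 0.43) for Ccng1 and 0.36 (95% interval 0.18 to 0.54) for Bax. For Phlda3 it was 0.51 (95% interval 0.20 to 0.83) and for Mdm2 0.14 (95% interval −0.11 to 0.39). These intervals are not adjusted for the number of genes and do not reach a 2-fold difference. The adjusted p was 0.245 for Cdkn1a, 0.110 for Ccng1, 0.0629 for Bax, 0.113 for Phlda3 and 0.642 for Mdm2. Gm42047, the exception, was at 191 to 372 CPM with rAAV9-ST3GAL5.v2 and 99.8 to 147 CPM with AAV9.EGFP, a log2 difference of 1.29 (adjusted p = 0.0373, SE 0.282). Its position within Gm20388, given above, limits this value too.

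Immediate-early genes, which switch on within minutes of a stimulus and need no new protein, were lower with rAAV9-ST3GAL5.v2 than with AAV9.EGFP, a difference that rested on single livers. Of 26 tested, 11 were called lower and 0 higher with rAAV9-ST3GAL5.v2 than with AAV9.EGFP, while 0 were called lower without AAV9.EGFP replicate 3 or without rAAV9-ST3GAL5.v2 replicate 1. The other omissions left 3 to 7 lower, of which AAV9.EGFP replicates 1, 2 and 4 left 4, 6 and 3 and rAAV9-ST3GAL5.v2 replicates 2, 3 and 4 left 7, 7 and 3. AAV9.EGFP had 15 of 25 called higher and 1 lower against PBS, and 0 called against AAV9.empty. With rAAV9-ST3GAL5.v2, 0 were called against PBS or AAV9.empty. The summed level was 418 to 515 CPM with PBS and 493 to 808 with AAV9.empty. It was 794 to 860 with AAV9.EGFP and 446 to 536 with rAAV9-ST3GAL5.v2. Fos, a subunit of AP-1, was at 2.92 to 6.14 CPM with PBS, 1.73 to 20.2 with AAV9.empty, 22.9 to 30.9 with AAV9.EGFP and 3.73 to 5.00 with rAAV9-ST3GAL5.v2. All 4 AAV9.EGFP livers were above every other liver, and the log2 difference between the vectors was −2.65 (SE 0.504, adjusted p = 0.0291), with an adjusted p of up to 0.0983 when a library was left out. Egr1, a zinc finger factor of the same response, was at 87.6 to 135 CPM with AAV9.EGFP and 15.8 to 42.7 with rAAV9-ST3GAL5.v2 (−1.86, SE 0.321, adjusted p = 0.0165). The AAV9.empty livers reached 128 CPM of Egr1, so that the vector and genome-free classes overlapped. Fosb, Rgs1, a brake on G protein signalling, and Gm49172, which overlaps Ano6, differed by −2.92 (SE 0.575), −2.49 (SE 0.524) and −2.00 (SE 0.405). In the pooled comparison only Ier5 of 25 tested immediate-early genes was called by edgeR (0.31, SE 0.0656, adjusted p = 0.00768), although 23 had a positive log2 fold change and the median was 0.30. DESeq2 called 2 higher.

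Some genes of cholesterol synthesis and some macrophage markers were also lower with rAAV9-ST3GAL5.v2, in the comparison whose 103 calls became 2 without AAV9.EGFP replicate 3 and 4 without rAAV9-ST3GAL5.v2 replicate 1. Cholesterol synthesis had 5 of 24 members lower by edgeR and 14 by DESeq2, and 0 higher by either (0 at an unadjusted p under 0.05 by edgeR), and Hmgcs1, the HMG-CoA synthase, was at 116 to 195 CPM against 227 to 266 (−0.67, SE 0.129, adjusted p = 0.0291). Kupffer cell and monocyte markers had 3 of 17 lower, Adgre1 (−0.54, SE 0.1002), Csf1r (−0.49, SE 0.0940) and Mrc1 (−0.44, SE 0.0955), and their summed level was 1632 to 1884 CPM with AAV9.EGFP and 1256 to 1506 CPM with rAAV9-ST3GAL5.v2. The largest rises with rAAV9-ST3GAL5.v2 were those of Ccdc24 (2.17, SE 0.492), Tmem88b (1.91, SE 0.422), Mir17hg, the host transcript of a microRNA cluster (1.38, SE 0.221), and Gt(ROSA)26Sor (1.01, SE 0.159). Mir17hg was at 6.41 to 12.0 CPM with rAAV9-ST3GAL5.v2, 2.99 to 4.48 with AAV9.EGFP, 4.41 to 7.98 with PBS and 2.93 to 4.59 with AAV9.empty, so it separated the vectors but not the classes.

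The empty capsid was set against PBS on the same 16 libraries (the capsid without a genome against the injection fluid). Of 15185 genes, 31 were called (0.204%), 17 higher (0.112%) and 14 lower (0.0922%), and the count was 102, 5, 7 and 2 without PBS replicates 1 to 4 in turn and 12, 7 and 7 without AAV9.empty replicates 2, 3 and 4. Of the 737 genes called between vector and genome-free livers, 3 were called here. In the p53 lists 0 of 73 genes were called by edgeR and 1, higher, by DESeq2, while 15 were higher and 3 lower at an unadjusted p under 0.05. The difference of AAV9.empty over PBS was 0.45 (95% interval 0.20 to 0.70) for Cdkn1a, 0.17 (95% interval −0.01 to 0.34) for Ccng1, −0.02 (95% interval −0.28 to 0.24) for Mdm2 and −0.14 (95% interval −0.33 to 0.05) for Bax. Cdkn1a was at 18.5 to 26.1 CPM with PBS and 24.9 to 31.3 with AAV9.empty, ranges that overlap (adjusted p = 0.130), against 124 to 131 and 122 to 180.0 with the 2 vectors.

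Last, the genes of the shared response were read in the 6 livers of the vectors with the CB promoter before ST3GAL5, against the mean of the 8 vector livers. That contrast called 3344 of 15873 genes (21.1%), 10.4% higher and 10.7% lower, and since it uses the same 8 vector livers it is not independent of the results above. Gm47283 had no count in the 3 rAAV9-ST3GAL5.v1 livers and a count in each of the 3 E332K livers. The p53 lists had 27 of 73 members higher and 2 lower. Of the 15 genes with the largest rise without overlap, 6 were called, all of them higher. Cdkn1a was higher by a further 0.60 (SE 0.0872) in log2 units, Phlda3 by 0.63 (SE 0.119), Tnfrsf10b by 0.73 (SE 0.153), Eda2r by 0.97 (SE 0.205), Inka2 by 0.65 (SE 0.209) and Lif by 1.91 (SE 0.215). Lif was at 12.8 to 24.03 CPM with rAAV9-ST3GAL5.v1 and 3.09 to 5.04 CPM with the E332K vector. Other members of the response were not called in that contrast, with differences of 0.00 (95% interval −0.27 to 0.27) for Dglucy, 0.02 (95% interval −0.20 to 0.24) for Ephx1, 0.16 (95% interval −0.06 to 0.38) for Sulf2 and −0.06 (95% interval −0.48 to 0.35) for Atp8b5. Ddit3, which did not separate the 16 livers, was higher by 2.51 (SE 0.170, adjusted p = 2.15e-09) in the 6. That value is a mean over 2 unlike groups. The summed level of the unfolded protein and integrated stress list was 5481 to 6722 CPM with rAAV9-ST3GAL5.v1 and 14106 to 20229 CPM with the E332K vector. In the 8 vector livers it was 5112 to 6064 CPM.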

How the data were processed

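RNA was measured in whole liver from 22 mice, 16 of which entered the main comparison. Per the labels and the study's methods, poly(A) RNA was made into non-stranded libraries, trimmed with Trimmomatic, aligned with STAR and quantified with RSEM on mm10. Versions were not given in the sources used here. The authors deposited expected counts and TPM for 55291 genes, and 5.69% of the expected counts were not whole and were rounded before testing. The TPM values deposited by the authors were used only for alternative fits. The deposited expected counts of the 16 libraries sum to 17164502 to 24305788, which limits the precision for genes near 1 CPM.

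Counts were tested in R 4.3.3 with edgeR 4.0.16 (filterByExpr, TMM, quasi-likelihood F test, Benjamini-Hochberg adjustment over all genes tested), with vector against genome-free livers as a 2-class fit. SE is the log2 fold change divided by the square root of F. Alternatives used DESeq2 1.42.0, limma 3.58.1 on log2 TPM, other filters and scalings, covariates for Gm47283 and for erythroid genes, and the omission of each library. On simulated counts for the pooled comparison (14437 genes), edgeR recovered 82% of genes changed 1.5-fold, 74% of those changed 2-fold and 98% of those changed 3-fold, with 1 false call. DESeq2 gave 29 false calls there. The simulated counts held no differences between the groups of a class and no effect of Gm47283. These numbers therefore do not cover such effects in the livers.

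Genes were named by rule. These were the 15 largest changes in each direction among called genes with a mean of 1 CPM or more in at least 1 class whose classes did not overlap, up to 6 genes of each of the 31 lists by adjusted p together with all called members, 8 genes that the study names, and the 5 largest differences each way between the 2 vectors. Genes named outside the rule are marked in the text. The members, lists and rules were chosen with earlier results of these data known. Replicate numbers were not used to pair the livers in the main fits, and whether they mark litters is not given. Results for a few genes are not reported here.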

Additional observations from a re-analysis of the deposited data

Results flagged for a closer look

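Among 120 groups of 4 livers examined for the 30 genes with the largest changes, 7 held a liver far from the other 3, and chance flags about 1 group in 20, or 6 here. Glul was at 326 CPM in AAV9.EGFP replicate 4 against 371 to 379 CPM in the others. Ifi206 was at 2.16 CPM in AAV9.empty replicate 3 against 2.88 to 2.96 CPM, and Mospd2 at 14.6 CPM in AAV9.empty replicate 4 against 11.8 to 12.1 CPM. Wee1 was at 23.8 CPM in AAV9.empty replicate 4 against 19.4 to 20.04 CPM. Scpep1 was at 46.5 CPM in rAAV9-ST3GAL5.v2 replicate 1 against 38.7 to 39.9 CPM. Tppp was at 9.49 CPM in PBS replicate 2 against 5.74 to 6.36 CPM. Trp53cor1 was at 0.505 CPM in PBS replicate 2 against 0.0508 to 0.0900 CPM. All of these genes had been selected for classes that did not overlap, so the lack of overlap follows from the selection.

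The effects of the 2 vectors differed for 15 of the 142 named genes, by the edgeR test of rAAV9-ST3GAL5.v2 against AAV9.EGFP. Higher with rAAV9-ST3GAL5.v2, as log2 fold changes, were Ccdc24 (2.17), Tmem88b (1.91), Mir17hg (1.38), Gm42047 (1.29) and Gt(ROSA)26Sor (1.01). Lower were the immediate-early genes Fosb (−2.92), Fos (−2.65), Egr1 (−1.86) and Dusp5 (−0.85), together with Rgs1 (−2.49) and Gm49172 (−2.00). Hmgcs1 (−0.67), Adgre1 (−0.54), Csf1r (−0.49) and Mrc1 (−0.44) were lower by less. The number of genes called in that comparison, 103, was 2 without AAV9.EGFP replicate 3 and 4 without rAAV9-ST3GAL5.v2 replicate 1, so these differences rest on few livers.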

How the results depend on the processing

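The p53 genes called higher numbered 26 to 32 over the 29 alternatives of the pooled comparison, and 1 p53 gene was called lower in each except the fit with Gm47283, which called 0. Counts over all genes moved more, and the cause was not tested. Genes called lower numbered 502 with 4 group means, 497 by DESeq2 and 119 with the Gm47283 term, which called 282 higher. Without a filter on low counts, 278 were called higher and 182 lower. With limma, 193 were higher on log2(TPM + 1) and 192 on log2(TPM + 0.1) at a mean TPM of at least 1, and 141 higher and 148 lower on log2(TPM + 1) unfiltered. Those 3 fits called 22, 33 and 25 genes at least 2-fold higher and 3, 5 and 1 at least 2-fold lower. The at least 2-fold lower genes were 13 with 4 group means and 13 with all 22 libraries, and with no minimum fold the counts are 430 and 307. Leaving out 1 library gave 285 to 455 higher and 177 to 370 lower, and 44 to 60 and 3 to 14 at least 2-fold.

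By DESeq2, AAV9.EGFP against PBS gave 831 calls and against AAV9.empty 235, rAAV9-ST3GAL5.v2 gave 1291 against AAV9.empty and 868 against PBS, the 2 vectors differed in 459 genes and AAV9.empty and PBS in 263. Without a filter the last 2 were 160 and 77. Omissions gave 280 to 1123, 44 to 106, 197 to 984, 192 to 507, 2 to 106 and 2 to 102, in that order.

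The replicate block gave 359 higher and 229 lower calls and 191 for rAAV9-ST3GAL5.v2 against PBS. Of 24 pairs of livers with the same number, 7 had deviations correlated above 0.1 (range −0.20 to 0.32), and 7 of 16 livers correlated best with their own number. Of 104 named genes called, 57 stayed called under every alternative, 47 did not and 0 reversed. Of 29 not called, Ddit3 reversed, at −0.033, −0.036 and −0.033 in the 3 TPM fits. Depth limited genes under about 1 CPM.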
